A study of Rattus norvegicus with 372 samples.

Results

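Ketoconazole is an azole antifungal drug that blocks the fungal cytochrome P450 CYP51, and it also binds mammalian P450 enzymes. The wells described here are those that the labels give as ketoconazole at 0.6 µM, the lower of its 2 concentrations. They are 12 of the 372 libraries of the series, namely 6 wells read by the whole transcriptome (WT) assay and 6 by the surrogate (ST) assay. They were chosen by their labels alone, and the reference was every vehicle well of the same batch, 9 wells per assay.

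The series treated primary hepatocytes of male Wistar rats, kept between layers of collagen, with 14 chemicals at 2 concentrations each for 24 h. Every treated and vehicle well held 0.5% DMSO, and the medium of all groups contained dexamethasone, insulin and epidermal growth factor (EGF), so each value below is a change on top of those agents. Batch 1 had 3 ketoconazole and 3 vehicle wells per assay, and batch 2, from another rat, had 3 ketoconazole and 6 vehicle wells. The 3 wells of a batch share an animal and are technical replicates, so p-values measure the spread between wells and the 2 batches are the only biological replication. Each batch also had its own library construction and sequencing, so in a difference of level between batches the animal and the run cannot be told apart. In batch 1 the vehicle wells were all on plate 4 and the ketoconazole wells on plate 5, so in that batch treatment and plate cannot be told apart against vehicle. In batch 2 the ketoconazole wells were on plate 3, as were 3 of the vehicle wells, and the other 3 were on plate 2. Wells of other chemicals at their low concentrations stood on the ketoconazole plates in both batches and gave a comparison that does not use the vehicle wells. The ketoconazole wells stood in row B in both batches, vehicle wells in rows F and G, and the low concentrations compared in rows D to G. Treatment and plate row therefore cannot be told apart on either reference.

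TempO-Seq counts ligated pairs of detector oligos, so each probe reads 1 short stretch of a transcript, and levels are not compared between genes here. The ketoconazole wells held 4561405 to 6202557 WT reads in batch 1 and 7225773 to 7747872 in batch 2, and the vehicle wells 5492941 to 8264980 and 5788931 to 7199877. Of the 22253 WT probes, 10689 had a mean of at least 10 counts over all wells of the assay and were tested, as were 1781 of the 2654 ST probes. Levels are given in single wells as CPM, the reads of a probe scaled to library size, and differences as log2 fold changes (L2FC) with their standard errors (SE). A probe was called when the Benjamini-Hochberg adjusted p of edgeR's quasi-likelihood test over all tested probes was under 0.05.

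Hepatocytes sense foreign chemicals through nuclear receptors. The pregnane X receptor (PXR) and the constitutive androstane receptor (CAR) switch on genes of drug clearance, above all CYP3A and CYP2B enzymes, and PXR with its partner RXR binds direct repeats of a short sequence upstream of rat Cyp3a genes. Cholesterol synthesis is set by SREBP2, a membrane-bound transcription factor that is released when membrane sterol falls and then raises the genes of nearly the whole pathway, from acetoacetyl-CoA to cholesterol. CYP51, the mammalian counterpart of the antifungal target, is an enzyme of that pathway and removes a methyl group from lanosterol.

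The windows of 250 bases before the annotated start of the leading genes are printed because the CYP3A and sterol probes are described first and in most detail here, although they are a small part of the called probes. Sequences are from RefSeq (rat assembly GRCr8), 5′ to 3′ on the gene's own strand. They lie at chr12:14343858-14344107 (minus strand) for Cyp3a2, chr12:14398804-14399053 (minus strand) for Cyp3a23-3a1 and chr17:66547525-66547774 (minus strand) for Idi1. The capitals mark AGTTCA repeated after 3 bases, read here on the other strand, in the Cyp3a windows, and CCAAT, also on the other strand, in that of Idi1.
Cyp3a2: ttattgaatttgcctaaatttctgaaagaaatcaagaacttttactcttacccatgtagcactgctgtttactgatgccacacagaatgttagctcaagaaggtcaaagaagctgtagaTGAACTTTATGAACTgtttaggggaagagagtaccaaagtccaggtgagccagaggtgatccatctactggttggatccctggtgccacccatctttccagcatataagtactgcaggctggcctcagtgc
Cyp3a23-3a1: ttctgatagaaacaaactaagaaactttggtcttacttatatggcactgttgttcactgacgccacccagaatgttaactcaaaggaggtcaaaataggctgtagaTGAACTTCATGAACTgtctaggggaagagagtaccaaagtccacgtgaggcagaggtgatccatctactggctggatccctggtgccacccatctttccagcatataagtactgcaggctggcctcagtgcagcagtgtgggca
Idi1: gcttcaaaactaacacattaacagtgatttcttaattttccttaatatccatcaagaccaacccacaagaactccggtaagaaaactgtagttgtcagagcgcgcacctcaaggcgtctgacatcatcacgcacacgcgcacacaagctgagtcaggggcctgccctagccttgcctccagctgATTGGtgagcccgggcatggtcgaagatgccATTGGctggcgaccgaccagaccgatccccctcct

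The repeat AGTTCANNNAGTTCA, searched on both strands, stood in 2 of the 33469 RefSeq windows of this length (0.00598%), and these were the Cyp3a2 window, at bases -131 to -117 from the start, and the Cyp3a23-3a1 window, at -144 to -130. The spelling searched is the one marked in the 2 Cyp3a windows printed above, so their match is not independent evidence about these genes. The repeated unit AGTTCA by itself stood in 12.2% of the windows. All 5 Cyp3a genes looked for had a window. Of the 25 genes of the sterol list described below, 17 had a window, 14 of them with CCAAT on either strand, against 34% of all windows. A sterol element spelt TCACNCCAC stood in 0 of the 17 and in 0.974% of all windows. A match describes letters in a window and is not a measured binding site.

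Against vehicle, 187 WT probes were called in the fit of both batches (1.75% of those tested), 102 higher with ketoconazole (0.954%) and 85 lower (0.795%), while 1678 had an unadjusted p under 0.05. All 187 had the same sign in the fit of each batch, as did 6556 of all 10689 probes (61.3%), but the fit of both batches uses the same wells and selects for that. In separate fits, batch 1 gave 45 called probes (0.421%, 28 higher and 17 lower) and batch 2 gave 323 (3.02%, 157 higher and 166 lower). The batches share no well, and 16 probes were called in each with the same sign, 11 higher and 5 lower. Those higher were 2 probes of Ugt2b17, Cyp3a1, Cyp3a2, Cyp51, Idi1, Csad, Lect2, Tmem38b, Acly and LOC103690028. Those lower were Rgs2, Cdh13, Ccdc125, Ddah2 and Phldb2. Changes were small: the median absolute L2FC of the 187 was 0.51, and 15 of them reached 1, 10 higher and 5 lower. In 117 of the 187 the wells of ketoconazole and vehicle did not overlap in either batch, which was so for 320 of all tested probes (2.99%). The 187 were selected on these same wells, so their higher share follows from the selection and is no separate support. Single wells moved the count: it was 72 without the third ketoconazole well of batch 2 and 77 without the second of batch 1. It was 119 and 95 without the first and second ketoconazole wells of batch 2, 121 without the first of batch 1, and 121, 114 and 124 without vehicle wells 1, 2 and 6 of batch 2.

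**Figure D1:**
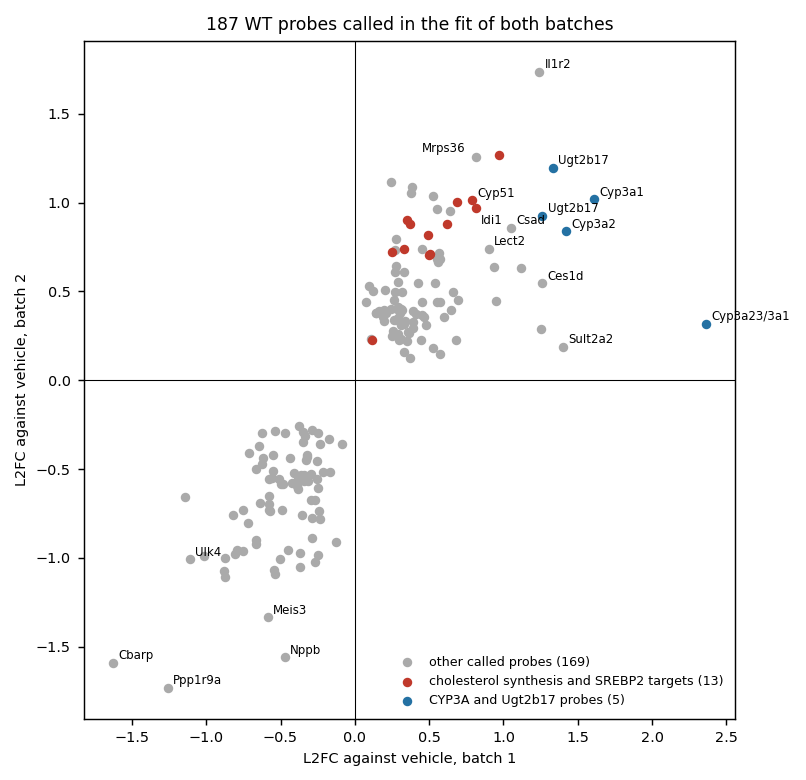
Each point is one of the 187 WT probes called against vehicle in the fit of both batches, with its L2FC in the separate fit of batch 1 (x axis) and batch 2 (y axis). Red points are the 13 called probes of the cholesterol synthesis list, blue points the 5 CYP3A and Ugt2b17 probes, and grey points the other 169. All lie in the upper right or lower left quadrant.

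Of the 10 called probes with the highest L2FC, 5 belong to the CYP3A and UGT2B families, enzymes that oxidise and glucuronidate drugs and steroids. CYP3A and UGT2B genes are near-identical copies, so which gene a probe reads is uncertain. The WT table gives 3 of these probes a locus name, and the names Cyp3a1, Cyp3a2 and Cyp3a23/3a1 used here are those the ST table gives the same probe numbers. Of the 2286 probe numbers found in both tables, 2124 carry the same symbol.

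The Cyp3a1 probe (number 32809) read 21.4, 22.9 and 20.3 CPM in the ketoconazole wells of batch 1 against 9.02, 6.6 and 5.01 in vehicle. In batch 2 it read 4.5, 8.38 and 10 CPM against a vehicle range of 3.2 to 4.39 with a median of 3.64. The groups did not overlap in either batch, although the first ketoconazole well of batch 2 lay only just above the vehicle wells. Its L2FC was 1.34 (SE 0.24, edgeR adjusted p 0.000135), 1.61 in batch 1 and 1.02 in batch 2.

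The Cyp3a2 probe (32374) read 32.5, 35.2 and 31.2 CPM against 13, 11.6 and 12 in batch 1, and 13.5, 15.7 and 15.6 CPM against 6.89 to 9.07 (median 8.57) in batch 2. These 6 ketoconazole wells were all well above vehicle and close to each other within a batch. The L2FC was 1.13 (SE 0.22, edgeR adjusted p 0.000537). The Cyp3a23/3a1 probe (33326) behaved less evenly: it read 2.65, 5.84 and 3.21 CPM against 0.842, 0.713 and 0.668 in batch 1, but 0.819, 0.687 and 0.666 CPM against 0.274 to 1.01 in batch 2. Its groups overlapped in batch 2, its L2FC was 2.36 in batch 1 and 0.32 in batch 2, and the latter became -0.01 with only the vehicle wells of the same plate. These are low counts, at most 34 reads in a ketoconazole well of batch 1 and 7 in a vehicle well. Cyp3a23/3a1 was not called with only the vehicle wells of the same plate in batch 2 (edgeR adjusted p 0.0825). Nor was it called without the filter on low counts (edgeR adjusted p 0.055).

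The 2 called probes of Ugt2b17 moved alike. Probe 33303, which the ST table names UGT2B10, read 177, 181 and 140 CPM against 72.1, 63.8 and 60.1 in batch 1, and 121, 102 and 92.8 CPM against 38.4 to 55 (median 43.9) in batch 2. Its L2FC was 1.35 (SE 0.23, edgeR adjusted p 0.000108). Probe 33224, which the ST table names UGT2B1, had an L2FC of 1.15 (SE 0.23, edgeR adjusted p 0.000878), and neither probe's groups overlapped in either batch. The ST assay, run on lysate of the same wells, gave L2FC of 1.38 for Cyp3a1, 0.89 for Cyp3a2, 1.16 for probe 33303 and 0.95 for probe 33224, each with an edgeR adjusted p under the threshold. Cyp3a23/3a1 was not called in ST.

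In the list of CAR and PXR targets as a whole, 4 of 17 tested probes rose, against 0.954% of all tested probes (Cyp3a23/3a1, Cyp3a1, Cyp3a2 and Ugt2b17 probe 33224) and 0 fell, with a median L2FC of 0.25 against 0.01 over all probes. All 4 entered the list through the ST symbol of their probe number, a match made after values were seen, and 0 of the 12 probes matched by their WT symbol were called by edgeR. DESeq2 also called 4 in the list. Of the 13 probes of the list that were not called, 3 had an unadjusted p under 0.05, as had 1678 of all 10689 tested probes. The 3, named after their values were seen, were Cyp2c6v1, a P450 of the CYP2C group (L2FC 0.85, edgeR adjusted p 0.0691), Por, the electron donor of microsomal P450s (0.33), and Alas1, which starts the haem synthesis that P450s need (0.35). Cyp2b1, the classical CAR target, had at most 3 counts in any ketoconazole or vehicle well, and no fold is given. Over the 14 low concentrations against vehicle the list's median with ketoconazole was the eighth highest, the highest being WY14643 (0.82), valproic acid (0.77) and naproxen (0.64). Ranitidine had a higher L2FC than ketoconazole for Cyp3a1 (1.99) and Cyp3a2 (1.72), and WY14643 had 1.16 and valproic acid 1.01 for Cyp3a1. The probe labelled Abcb4, which the ST table names the drug efflux pump Abcb1a, had an L2FC of 0.10 (SE 0.34, edgeR adjusted p 0.929).

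**Figure D2:**
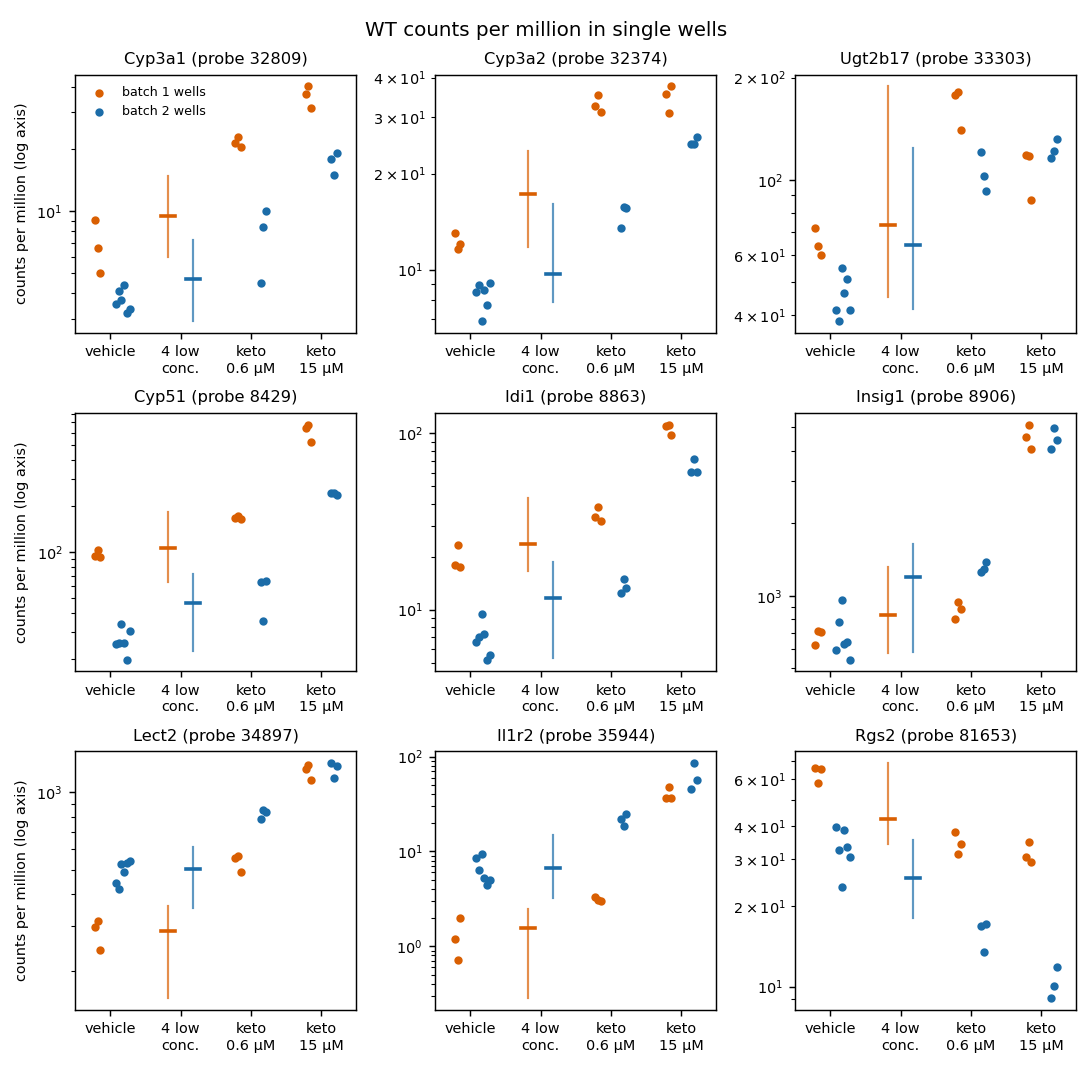
WT CPM of 9 probes (y axes, logarithmic) in single wells of vehicle, ketoconazole 0.6 µM and ketoconazole 15 µM, with batch 1 in orange and batch 2 in blue. For the 4 low concentrations of the same plates a bar gives the median and a line the range of 12 wells per batch. Both ketoconazole groups lie above vehicle for the first 8 probes and below it for Rgs2, and the batches differ in level for most of them.

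The list of cholesterol synthesis and SREBP2 targets had the most called probes of the 29 lists. Of its 20 tested probes 13 rose, against 0.954% of all tested probes, 0 fell, and 19 had the same sign in both batches. The median L2FC of the list was 0.65, against 0.01 over all tested probes, and was 0.36 in batch 1 and 0.73 in batch 2. In the separate fits 2 of the 20 were called in batch 1 and 13 in batch 2. The wells of the groups did not overlap in either batch for 8 of them, against 2.99% of all tested probes.

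The called members described here ran through the pathway. At its entry stood Acat2, the cytosolic thiolase that makes acetoacetyl-CoA (L2FC 0.72). The isoprenoid steps gave Idi1, which isomerises isopentenyl diphosphate (0.99), and Fdps, which makes farnesyl diphosphate (0.93). Squalene is then made by Fdft1 (0.72), oxidised by Sqle (0.81) and closed to lanosterol by Lss (0.63). After lanosterol came Cyp51 (1.02), the methylsterol oxidase Msmo1 (0.73) and the ketosteroid reductase Hsd17b7 (0.76). Of the regulators, Insig1, which holds the SREBP escort in the endoplasmic reticulum, had an L2FC of 0.68, and Srebf2, the gene of SREBP2 itself, 0.21. The other 7 tested members did not pass, among them Mvd and Hmgcs1 (0.57 each), Dhcr7 (0.43), Stard4 (0.40), Nsdhl (0.19) and Mvk (0.18). For Hmgcs1, an early enzyme of the pathway, the SE was 0.23 and the edgeR adjusted p 0.188.

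Cyp51 read 167, 173 and 165 CPM with ketoconazole against 94, 103 and 92.7 in batch 1, and 63.6, 35.3 and 64.2 CPM against 19.9 to 34 (median 25.4) in batch 2. The second ketoconazole well of batch 2 stood apart from the other 2 and lay just above the highest vehicle well. The SE of its L2FC was 0.21 and the edgeR adjusted p 0.0018, and ST gave 0.66 (edgeR adjusted p 0.0456). Idi1, whose promoter window is printed above, read 33.6, 38.3 and 31.7 CPM against 17.9, 23.4 and 17.5 in batch 1, and 12.4, 14.8 and 13.3 CPM against 5.2 to 9.47 (median 6.75) in batch 2. Its wells did not overlap in either batch, and ST gave 0.79 (edgeR adjusted p 0.0113).

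Insig1 read 804, 938 and 880 CPM against 624, 712 and 707 in batch 1, and 1249, 1286 and 1376 CPM against 544 to 958 (median 634) in batch 2, so the groups separated in both batches and by more in the second. Its L2FC was 0.35 in batch 1 and 0.90 in batch 2. Sqle read 130, 128 and 112 CPM against 83.4, 74 and 81.5 in batch 1, and 83, 70.6 and 80.9 CPM against 32.4 to 51.2 (median 42.5) in batch 2. No ketoconazole well of Sqle overlapped the vehicle wells of its batch. The ST assay tested 15 probes of the list and called 10 higher and 0 lower, against 30 and 15 of all 1781 ST probes tested.

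The vehicle wells chosen moved the sterol count. With only the 3 vehicle wells of the ketoconazole plate in batch 2, 7 of the 20 were called and the median L2FC was 0.60, and 7 were called without the second ketoconazole well of batch 1 (median 0.58).

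**Figure D3:**
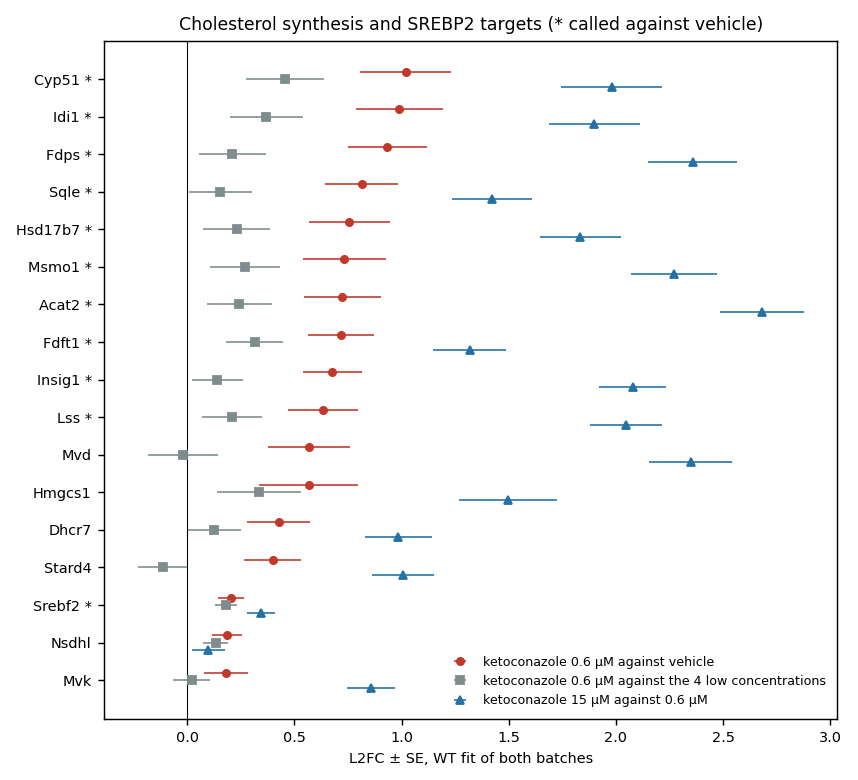
L2FC with its SE (x axis) for 17 of the 20 tested probes of the cholesterol synthesis list in the WT fit of both batches. Red circles give ketoconazole 0.6 µM against vehicle, grey squares against the 4 low concentrations of the same plates, and blue triangles 15 µM against 0.6 µM. Asterisks mark the 11 shown probes called against vehicle. The grey squares lie nearer 0 than the red circles for each of these 11, and 16 of the blue triangles are called.

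Against the mean of 4 low concentrations on the same plates (acetaminophen 400 µM, indomethacin 12 µM, sulfasalazine 4 µM and chloramphenicol 18 µM, 24 wells), 78 probes were called (0.73%, 41 higher and 37 lower). WY14643, also on these plates, is a PPAR alpha agonist and was left out of that mean. The 2 comparisons share the ketoconazole wells. Of the 187 probes called against vehicle, 18 were called here in the same direction, 12 higher and 6 lower. The 12 were Il1r2, Cyp3a23/3a1, both Ugt2b17 probes, Cyp3a1, Cyp3a2, Lect2, Ndufs4, Acly, LOC103690028, Pdp2 and Tom1, and the 6 were Reln, LOC688583, Ldhd, Klhl18, Ppp1r9a and Cbarp. L2FC on this reference was 0.96 for Cyp3a1, 0.77 for Cyp3a2 and 0.85 and 0.75 for the Ugt2b17 probes. Set against each of the 4 by itself, comparisons chosen after the data were seen, the Ugt2b17 probes had 1.38 and 1.18 against acetaminophen and 1.40 and 1.44 against sulfasalazine, called each time. They had 0.03 (SE 0.25) and -0.02 (SE 0.25) against chloramphenicol, with edgeR adjusted p of 0.992 and 0.995. Cyp3a1 was called against acetaminophen (1.25), sulfasalazine (0.97) and chloramphenicol (1.09), and Cyp3a2 against acetaminophen (0.93) and sulfasalazine (0.78), with 0.99 against chloramphenicol (edgeR adjusted p 0.052). Against indomethacin none of these 4 probes passed edgeR's threshold, with L2FC of 0.53 for Cyp3a1, 0.37 for Cyp3a2 and 0.62 and 0.41 for the Ugt2b17 probes. Of the 20 sterol probes, 0 were called by edgeR in this comparison, 5 had an unadjusted p under 0.05, DESeq2 called 1, and the list's median L2FC was 0.20.

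Those 4 references were themselves not alike. Against vehicle, with whose wells ketoconazole is also compared, indomethacin had 20 of the 20 sterol probes called higher (5.59% of all tested probes called in either direction), sulfasalazine 11 (16.7%), and chloramphenicol and acetaminophen 0 each (0.0936% and 1.19%). Their median sterol L2FC was 0.97, 0.56, 0.25 and 0.09. Set against each by itself, a comparison chosen after the data were seen, ketoconazole had 6 of the 20 higher than acetaminophen (1.14% of all probes called), 0 than indomethacin (0.0842%), 1 than sulfasalazine (11.7%) and 0 than chloramphenicol (0.112%). The median sterol L2FC in these was 0.53, -0.25, 0.21 and 0.42. Over the 14 low concentrations against vehicle, the ketoconazole median was the fifth highest, after WY14643 (1.96), simvastatin (1.51), indomethacin and naproxen (0.74).

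**Figure D4:**
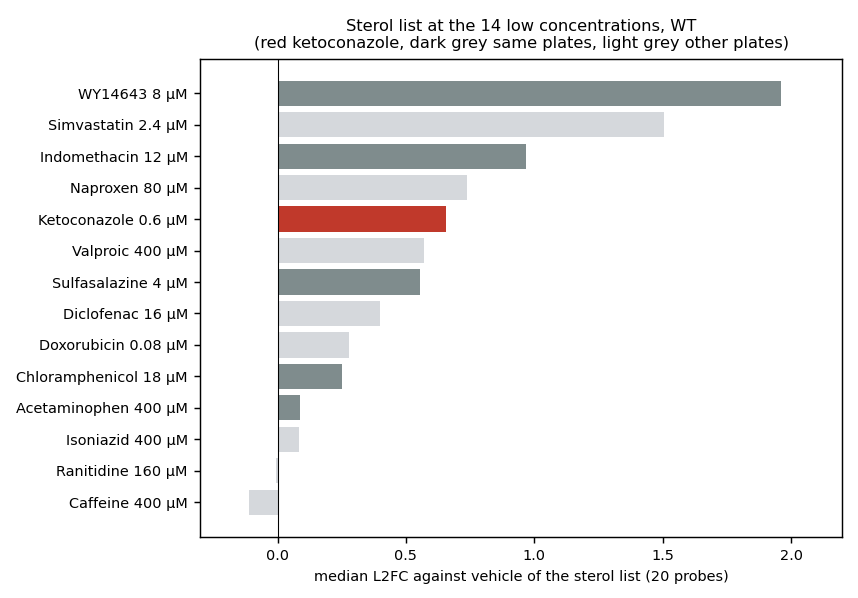
Median L2FC against vehicle of the 20 sterol probes (x axis) for each chemical at its low concentration, in the WT fit of both batches. Ketoconazole is red, chemicals on its plates are dark grey and those on other plates light grey. WY14643 (1.96) and simvastatin (1.51) have the longest bars, ketoconazole (0.65) is the fifth, and ranitidine and caffeine lie at or below 0.

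Fatty acid synthesis, which shares acetyl-CoA with the sterol pathway, had 4 of 13 tested probes higher, against 0.954% of all tested probes, and 0 lower, with a median L2FC of 0.17. Acly, which makes cytosolic acetyl-CoA from citrate, read 442, 490 and 413 CPM against 330, 346 and 302 in batch 1, and 290, 283 and 270 CPM against 191 to 218 (median 206) in batch 2. These wells did not overlap, and its L2FC of 0.50 (SE 0.10, edgeR adjusted p 0.000537) was matched by 0.44 in ST (edgeR adjusted p 0.0038). Scd, the desaturase that makes oleate, had an L2FC of 0.84, Thrsp, a lipogenic regulator, 0.73, and Acaca, which makes malonyl-CoA, 0.45. Fasn, the fatty acid synthase, had 0.53 (edgeR adjusted p 0.0686) and is named after its values were seen. With only the vehicle wells of the same plate in batch 2, 2 of the 13 were called. Against the 4 low concentrations of the same plates 1 was called, Acly, and the median L2FC was 0.13. Against single references the median was 0.24 for acetaminophen, -0.20 for indomethacin, -0.09 for sulfasalazine and 0.19 for chloramphenicol. Wells of medium alone had 6 of the 13 called higher against the same vehicle wells, with a median L2FC of 0.41. Of all tested probes 12.3% were called in medium in either direction.

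AhR targets had 2 of 7 tested probes higher, against 0.954% of all tested probes, both P450s that oxidise polycyclic compounds. Cyp1a1 read 50.6, 55.5 and 36 CPM against 35.6, 35.1 and 25.2 in batch 1, and 72.6, 64.2 and 60.8 CPM against 27.4 to 40.6 (median 33.9) in batch 2, with an L2FC of 0.82 (SE 0.20, edgeR adjusted p 0.0144). Cyp1a2 read 1088, 1497 and 1393 CPM against 629, 606 and 425 in batch 1, while in batch 2 its 718, 805 and 810 CPM overlapped the vehicle range of 499 to 728. Its L2FC was 0.76, with 1.25 in batch 1 and 0.29 in batch 2. Against the 4 low concentrations of the same plates the median L2FC of the list was 0.03, against 0.45 with vehicle, and neither P450 was called, with 0.45 for Cyp1a1 (edgeR adjusted p 0.181) and 0.47 for Cyp1a2 (edgeR adjusted p 0.129). Against single references, Cyp1a1 and Cyp1a2 had 0.54 and 0.59 with acetaminophen, -0.07 and -0.13 with indomethacin, 0.51 each with sulfasalazine, and 0.83 and 0.91 with chloramphenicol. Of these 8 values 1 was called, that of Cyp1a2 against chloramphenicol (edgeR adjusted p 0.0346). With only the vehicle wells of the same plate in batch 2, Cyp1a1 was not called (edgeR adjusted p 0.077).

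In the other lists few probes passed, and all but 1 of those that did were higher. The background is 1.75% of all tested probes called, and lists of this size with 1 called probe are near it. Apolipoproteins had 2 of 11, Apoa2 of high density lipoprotein (L2FC 0.80) and Apoh (0.59). Glycolysis and gluconeogenesis had 2 of 21, among them the pyruvate dehydrogenase kinase Pdk1 (0.41). The lists of hepatocyte identity and of urea cycle genes each had 1, which is in both cases Cps1, the first urea cycle enzyme (0.63). Single members rose among glucocorticoid receptor targets (Fkbp5, 0.36, of 18), endoplasmic reticulum chaperones (Sel1l, 0.39, of 12) and acute phase proteins (Orm1, 0.61, of 20). Against the low concentrations of the same plates none of these named probes passed edgeR's threshold. There Apoa2 had 0.15, Apoh 0.21, Orm1 0.10, Pdk1 0.10, Sel1l 0.09, Fkbp5 0.21 and Cps1 0.42, and the apolipoprotein median was 0.07 against 0.19 with vehicle. Against indomethacin by itself Apoa2, Apoh and Orm1 had -0.01, -0.07 and 0.01. Tat, a glucocorticoid target that marks hepatocytes, had 0.16 (edgeR adjusted p 0.596). Among 11 transporter probes the organic anion transporter Slc22a8 fell, by 0.55 on the log2 scale, but had 0.12 on the same-plate low concentrations (edgeR adjusted p 0.666). Slc22a8 was called lower than vehicle at 7 of the 14 low concentrations, ketoconazole among them. With only the vehicle wells of the same plate in batch 2, Fkbp5, Sel1l and Slc22a8 were not called (edgeR adjusted p 0.0911, 0.149 and 0.125), Fkbp5 was not called by DESeq2 (adjusted p 0.053), and without the filter on low counts Fkbp5, Sel1l and Pdk1 were not called.

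The lists of bile acid genes, LXR targets, PPAR alpha targets, constitutive P450s, the integrated stress response, p53 targets, NRF2 genes, heat shock proteins, metallothioneins, immediate early factors, clock genes, interferon genes, chemokines, cell cycle genes, respiratory chain subunits, ribosomal proteins and lysosomal genes had 0 called probes each by edgeR in the fit of both batches. Of the 243 probes in these 17 lists, 45 had an unadjusted p under 0.05, 34 of them higher, and DESeq2 called 1. Over all 10689 tested probes 1678 had such a p, a share near that of these lists. Their medians ran from -0.21 for the immediate early factors to 0.26 for the constitutive P450s. Cell cycle genes had a median of -0.15, but -0.51 in batch 1 and 0.08 in batch 2. In the separate fit of batch 2, 4 of 17 NRF2, 4 of 15 lysosomal and 3 of 17 ribosomal probes were called higher, against 157 of all 10689. Few others were called in a separate batch. Against the same-plate low concentrations 3 of 22 PPAR alpha probes and 1 LXR probe were lower, against 37 of all. On that reference 2 lysosomal probes and 1 interferon probe were higher, against 41 of all.

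**Figure D5:**
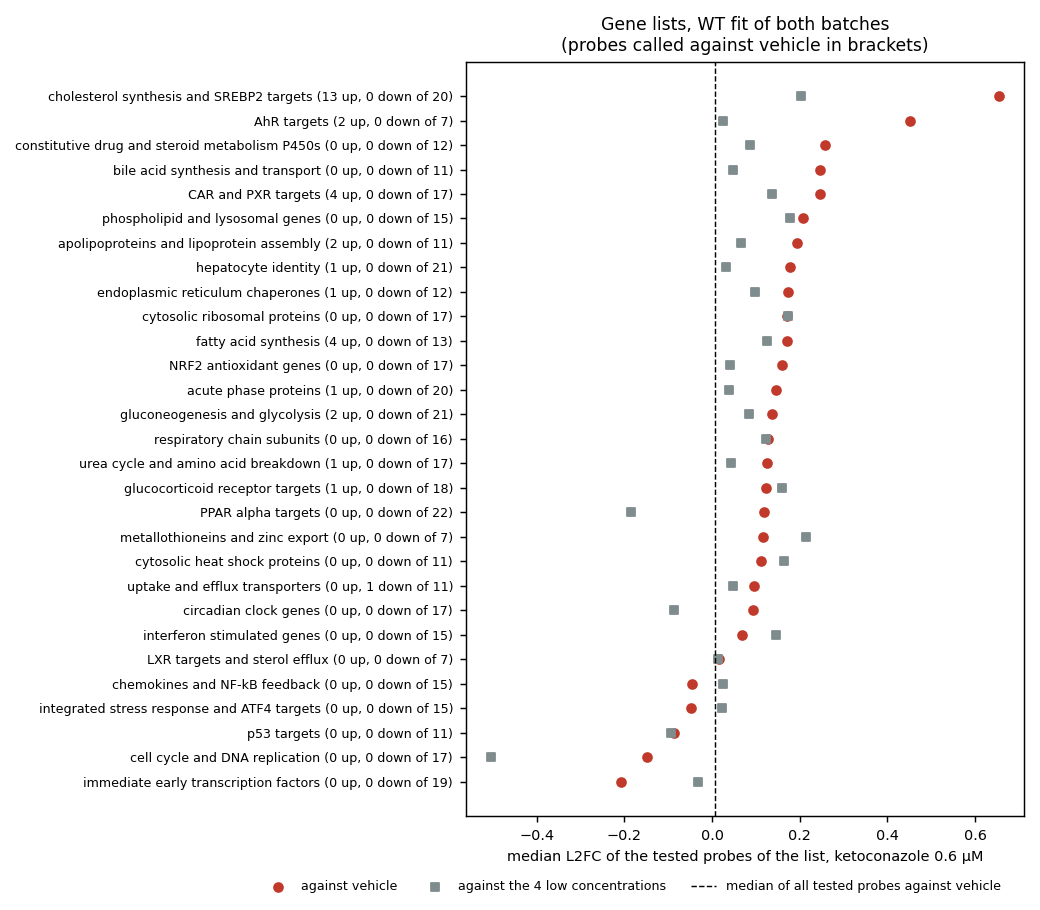
Median L2FC of the tested probes of each of the 29 gene lists (x axis) for ketoconazole 0.6 µM against vehicle (red circles) and against the 4 low concentrations of the same plates (grey squares). The dashed line is the median of all 10689 probes against vehicle, 0.01, and the number of called probes stands beside each name. The sterol list has the highest median against vehicle (0.65), and against the low concentrations it is 0.20.

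Outside the lists, Lect2 and Il1r2 rose on both references in the fit of both batches, and Lect2 was also called in each batch separately. Lect2 encodes a protein that hepatocytes secrete, and it read 554, 563 and 489 CPM against 297, 314 and 243 in batch 1, and 790, 852 and 839 CPM against 420 to 540 (median 507) in batch 2. The gap between the groups was wider than the spread within either. Its L2FC was 0.78 (SE 0.14, edgeR adjusted p 0.000135), 0.90 in batch 1 and 0.74 in batch 2. Against acetaminophen, indomethacin, sulfasalazine and chloramphenicol by themselves it was 0.84, 0.82, 1.18 and 0.64, called each time, the last with an edgeR adjusted p of 0.0465. Of the 14 low concentrations ketoconazole had the highest Lect2 L2FC against vehicle, and the next was ranitidine with 0.36.

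Il1r2 encodes the decoy receptor that binds interleukin 1 without signalling. It read 3.32, 3.09 and 3.03 CPM against 1.2, 0.713 and 2 in batch 1, and 21.8, 18.7 and 25.1 CPM against 4.4 to 9.47 (median 5.76) in batch 2. The level was low in batch 1, at most 18 reads in a ketoconazole well, and the batches differed more than the treatments did. The L2FC was 1.57 (SE 0.28, edgeR adjusted p 0.000135), the highest of all called probes, with 1.24 in batch 1 (edgeR adjusted p 0.369) and 1.74 in batch 2 (edgeR adjusted p 2.33e-05). Against chloramphenicol alone it was 0.93 (edgeR adjusted p 0.2), and it was called against the other 3 references by themselves.

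Csad, which makes hypotaurine on the way to taurine, read 45.1, 55 and 38.5 CPM against 26.8, 23 and 16.2 in batch 1 and 33.6, 32 and 30.8 CPM against 13.3 to 24.2 (median 17.2) in batch 2. It had the smallest adjusted p of the named probes (L2FC 0.99, SE 0.15, edgeR adjusted p 3.4e-06), yet 0.15 on the same-plate reference (edgeR adjusted p 0.606). Tmem38b, a cation channel of the endoplasmic reticulum, had 0.54 against vehicle and 0.10 on that reference. LOC103690028, an unnamed locus, had 0.46 and 0.30 and was called on both. Sult2a2, a sulfotransferase of steroids and bile acids, rose by an L2FC of 1.40 in batch 1 and had 0.19 in batch 2, and Mrps36, a mitochondrial protein of low count, had 0.82 and 1.25. Neither was called with only the vehicle wells of the same plate in batch 2 (edgeR adjusted p 0.139 for Sult2a2 and 0.184 for Mrps36), without the filter on low counts, or with the probes of a symbol added together. At the 14 low concentrations against vehicle, Sult2a2 was called higher in 9 and Csad in 8, ketoconazole having rank 9 and 5 by L2FC. Tmem38b and Mrps36 were called higher in 6 each and LOC103690028 in 2.

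Among the probes that fell, Rgs2, which limits signalling by G protein coupled receptors, was called with both of its probes. Probe 81653 read 38, 31.5 and 34.4 CPM against 66.4, 58.1 and 65.3 in batch 1, and 16.9, 13.5 and 17.2 CPM against 23.5 to 39.6 (median 33.1) in batch 2. Every ketoconazole well lay below every vehicle well of its batch. Its L2FC was -0.94 (SE 0.18, edgeR adjusted p 0.000511), the other probe (9701) had -0.93, and ST gave -0.93 for the latter (edgeR adjusted p 0.0091). On the same-plate reference probe 81653 had -0.52 (edgeR adjusted p 0.0794). Both Rgs2 probes were called lower than vehicle at 6 of the 14 low concentrations, ketoconazole among them.

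Cdh13, an adhesion protein that binds adiponectin, read 3.98, 3.61 and 3.21 CPM against 6.14, 8.38 and 9.36 in batch 1, and 11.3, 10.3 and 10.9 CPM against 14.8 to 18.8 (median 17.7) in batch 2, with an L2FC of -0.84 and no overlap. Hbegf, an EGF receptor ligand, read 4.42, 3.61 and 4.28 CPM against 6.26, 8.02 and 8.19 in batch 1, and 4.78, 2.47 and 3.87 CPM against 5.9 to 9.48 (median 8.09) in batch 2, with an L2FC of -0.93. The groups of Hbegf did not overlap either. On the same-plate reference neither was called, with -0.12 for Cdh13 (edgeR adjusted p 0.839) and -0.39 for Hbegf (edgeR adjusted p 0.4). Against single references Cdh13 had 0.04 with acetaminophen, 0.17 with indomethacin, -0.33 with sulfasalazine and -0.36 with chloramphenicol, so the sign turned with the reference. Cdh13 was called lower than vehicle at 7 of the 14 low concentrations and Hbegf at 5, ketoconazole among them. The 10 lowest L2FC also held Cbarp (-1.66), Ppp1r9a (-1.47), the natriuretic peptide gene Nppb (-1.06), Ulk4 (-1.02), the homeobox gene Meis3 (-1.01), Wdr54 (-0.92) and the cytokine receptor kinase gene Jak3 (-0.88). Each of these 7 had at most 32 reads in any vehicle well of batch 2. Cbarp had at most 2 reads in a ketoconazole well of batch 1 and 8 in a vehicle well, so the size of its L2FC depends on the fit. With only the vehicle wells of the same plate in batch 2, Ppp1r9a was called and the other 6 were not (edgeR adjusted p 0.0525 to 0.199). On the same-plate low concentrations Ppp1r9a (-1.12) and Cbarp (-1.36) were called and the other 5 were not, with -0.72 for Meis3, -0.69 for Jak3, -0.57 for Wdr54, -0.45 for Ulk4 and 0.04 for Nppb (edgeR adjusted p 0.965). Nppb was called lower than vehicle at 7 of the 14 low concentrations, and Cbarp and Jak3 at 1, which was ketoconazole.

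Other probes that fell, named after their values were seen, were Serpinh1, the collagen chaperone (-0.88), the ETS factor Etv4 (-0.86), Timp3, an inhibitor of matrix proteases (-0.81), Spry2, a feedback inhibitor of growth factor receptors (-0.54), and Cd44, a hyaluronan receptor (-0.52). None of these 5 passed edgeR's threshold against the same-plate low concentrations, where L2FC ran from -0.48 for Etv4 to -0.23 for Timp3. Ldhd, the mitochondrial D-lactate dehydrogenase, also named after its values were seen, read 286, 286 and 294 CPM against 409, 528 and 424 in batch 1, and 147, 218 and 196 CPM against 287 to 388 (median 358) in batch 2. Its groups did not overlap, and it fell on both references, by 0.81 on the log2 scale against vehicle and by 0.74 against the low concentrations. Phldb2 (-0.54 and -0.39) and Tpm1 (-0.61 and -0.45) fell with 2 probes each.

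At 15 µM, 4421 probes differed from 0.6 µM (41.4%, 2135 higher and 2286 lower). This comparison uses the same 0.6 µM wells as the one against vehicle, so values are set side by side. In the sterol list 18 of 20 probes were higher at 15 µM than at 0.6 µM and 0 lower, with a median difference of 1.46 on the log2 scale. Cyp51 reached 525 to 677 CPM in batch 1 and 235 to 243 in batch 2, a further L2FC of 1.98, and Insig1 4079 to 5122 and 4076 to 4967 CPM, a further 2.08. Nsdhl, a sterol dehydrogenase, was not called (0.10, edgeR adjusted p 0.314).

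Other called probes moved differently between the concentrations. Cyp3a1 was higher still at 15 µM (0.93, edgeR adjusted p 0.000378), as were Lect2 (0.90), at 1122 to 1302 CPM over both batches, and Il1r2 (2.56). The differences of the Ugt2b17 probes were -0.22 and -0.15 (SE 0.25 each), and that of Cyp3a2 was 0.40 (edgeR adjusted p 0.144). Cps1, Csad, Apoh and Sult2a2, higher than vehicle at 0.6 µM, fell from 0.6 to 15 µM by 2.59, 1.65, 1.33 and 1.84 on the log2 scale. Ces1d, a liver carboxylesterase named after its values were seen, had 0.95 at 0.6 µM and then fell by 2.66. Rgs2 probe 81653 had -0.32 between the concentrations (edgeR adjusted p 0.181). Ldhd fell further, by 2.09, while Cd44 rose by 1.82 and Cdh13 by 0.69.

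The effect of 0.6 µM was not shown to differ between the batches. In a test of the difference itself, 0 probes were called by edgeR (0%) and 0 by DESeq2, 572 had an unadjusted p under 0.05, and the smallest adjusted p was 0.199. A missed threshold does not show that the effects were equal, and the separate batch values above are given for that reason. In ST, 45 probes were called against vehicle (2.53%, 30 higher and 15 lower). Of the 187 WT calls, 61 had the same probe number tested in ST, all 61 with the same sign, and 30 were called there, 24 higher and 6 lower. Both assays read lysate of the same wells, so ST repeats the reading and not the treatment.

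The wells were checked against markers of the cells a liver preparation can hold. All 7 hepatocyte markers were tested, and their summed level, here in CPM of the total reads without TMM scaling, was 32200 to 36200 CPM with ketoconazole and 28300 to 32400 with vehicle in batch 1, and 33900 to 36200 and 31800 to 36900 in batch 2. Of 7 tested Kupffer cell and leukocyte markers, Cd68 was called higher (L2FC 0.81), while the summed level was 140 to 163 CPM against 131 to 180 in batch 1 and 94.2 to 118 against 104 to 139 in batch 2. Of 7 tested stellate cell and fibroblast markers, Reln was called lower (-0.41), and the summed level was 416 to 514 CPM against 519 to 535 in batch 1 and 259 to 283 against 333 to 446 in batch 2, lower without overlap in both. The biliary sum, with Krt7 at 0, was 86.7 to 115 CPM against 117 to 134 and 103 to 134 against 124 to 148, and the endothelial sum, with 1 marker tested, was 7.02 to 8.72 against 5.36 to 8.56 and 5.67 to 6.71 against 4 to 5.87. The stellate and biliary sums moved the same way as the probes that fell, Serpinh1 and Timp3 among them, and their part in those results was not tested. In bulk lysate, fewer cells of a type and less RNA per cell cannot be told apart.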

How the data were processed

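The authors aligned TempO-Seq reads to rat rn6 with STAR 2.5.3a, per the submitters' processing notes, and deposited raw read counts per probe and well, one table per assay, which were used as deposited. Groups came from the labels. Probes with a mean of at least 10 counts over all wells of the assay were fitted in R 4.3.3 (edgeR 4.0.16, quasi-likelihood, TMM scaling), with all wells in the fit and batch as a term where both batches were fitted together. CPM are TMM-scaled. DESeq2 1.42.0, RLE size factors, other filters and other reference wells were alternatives. The code was tested on simulated data.

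Members and lists were chosen with earlier results of these data known. Named were the 10 highest and 10 lowest called L2FC, up to 12 probes called in each batch separately, up to 3 called members per list or, with none, the one with the smallest p, and set genes such as Hmgcs1 and Tat. Probes outside this rule are said to be named after their values were seen, or stand in counts of called members. Read counts without molecular identifiers are not molecules, and depth limits low probes. The smaller number of reads in some wells was not corrected beyond scaling. A named gene with no tested probe has no value here. Some genes are not reported here and stand only in counts and medians.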

Additional observations from a re-analysis of the deposited data

Results flagged for a closer look

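Of the 63 named probes, 3 had a vehicle well in batch 2 that lay far from the other 5, measured as its gap to the nearest well over the range of the group. Chance alone gives about 1 in 20. Hspb1, a small heat shock protein, read 24.6 CPM in one well of plate 3 against 31 to 34.8 in the others. In the same well Sel1l, of endoplasmic reticulum degradation, read 59.1 CPM against 42.1 to 48.1. In another well of plate 3 Sult2a2 read 5.71 CPM against 3.07 to 3.96. The high Sel1l well lay below all 3 ketoconazole wells of that batch (60.3 to 63.3 CPM), whereas Sult2a2 in ketoconazole (3.55 to 6 CPM) overlapped it.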

How the results depend on the processing

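No paired analysis was possible because the labels carry no replicate numbers that pair ketoconazole with vehicle wells. Counts of called probes moved as follows. DESeq2 gave 76 in batch 1 (45 by edgeR). Without the filter on low counts there were 100 in batch 1, 214 in batch 2 (323) and 76 in both batches (187). With only the compared wells in the fit there were 91, 816 and 1021, 166 in ST (45), 127 against the same-plate low concentrations (78) and 2 for the difference between batches (0). Treatments fitted per batch and averaged gave 429 in both batches, 74 in ST and 308 against the low concentrations. With the same-plate vehicle wells alone in batch 2 there were 113 in both batches and 1 for the difference. Adding WY14643 to the low concentrations gave 997, and each low concentration by itself 122 (acetaminophen), 9 (indomethacin), 1252 (sulfasalazine) and 12 (chloramphenicol), the last 4 chosen after seeing the data. With an absolute L2FC of at least 1 as well, 18, 45, 15, 2 in ST, 13 against the low concentrations and 1057 for 15 µM remained. The causes were not tested.

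Leaving out one well at a time gave 13 to 38 calls in batch 1, 65 to 361 in batch 2, 72 to 253 in both batches, 16 to 51 in ST, 23 to 86 against the low concentrations, 4193 to 4232 for 15 µM and 0 to 0 for the difference. Beyond the wells named with the count of both batches, counts fell by over 1.5 times in batch 1 without ketoconazole well 1 (29), 2 (13) or 3 (24) or vehicle well 1 (20) or 3 (18), and in batch 2 without ketoconazole well 1 (123), 2 (111) or 3 (65) or vehicle well 1 (203) or 6 (192). In ST they did so without ketoconazole well 2 of batch 1 (16) or 3 of batch 2 (28), and against the low concentrations without ketoconazole well 1 (32) or 2 (34) of batch 1 or 1 (23), 2 (31) or 3 (42) of batch 2. Over 1386 alternatives of the 63 named probes, 1219 kept direction and side of the threshold, 142 lost the call, 24 gained it, and 1 changed sign, Abcb4 (0.10) at -0.048 without the first ketoconazole well of batch 1, the lowest value of leaving out a well, of which the highest was 0.28. With the same-plate vehicle wells 16 named calls were lost, among them Cyp3a23/3a1, Scd, Cyp1a1 and Nppb. Under the alternatives of the WT fit of both batches against vehicle, the sterol list had 7 to 16 called probes, all higher. Against the mean of the same-plate low concentrations edgeR called 0 of them. Depth limits low probes such as Cbarp.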

Other observations

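The wells labelled as culture medium were not part of the comparison. In them Lect2 had an L2FC of 0.31 against vehicle (edgeR adjusted p 0.0919) and Il1r2 of 0.90 (edgeR adjusted p 0.0101), against 0.78 and 1.57 with ketoconazole, and both contrasts use the same vehicle wells. The median L2FC of the sterol list in medium was 0.41, with 7 of its 20 probes called higher. Of all tested probes 12.3% were called there in either direction. The fatty acid list had 6 of 13 higher and a median of 0.41, against 4 and 0.17 with ketoconazole. In medium Scd had 2.79, Thrsp 1.11, Acly 0.695, Insig1 0.84 and Tmem38b 0.59, each above its ketoconazole value. Csad (0.91), Cyp51 (0.40), Idi1 (0.32), Sqle (-0.01) and Cyp3a1 (0.13) lay below theirs.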
